A study of Mus musculus with 6 samples.

Results

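The GTPases of immunity-associated proteins (GIMAPs) are a family of GTP-binding proteins encoded in the mouse by 8 genes side by side on chromosome 6. All 8 genes, Gimap1 and Gimap3 to Gimap9, were taken by symbol from a deposited table of 54532 genes, and all 8 passed the count filter that left 14530 genes for testing. All cultures were purified CD4+ T cells from the spleens of C57BL/6 mice, kept for 72 h in a T helper 1 (Th1) condition. The 3 control cultures received no agent that the labels name, and the other 3 received idelalisib, a drug that blocks phosphoinositide 3-kinase (PI3K) delta. The labels call the 3 cultures of a group biological replicates but do not say whether they came from separate mice, so p-values measure the spread between these libraries, which may be technical. Neither the dose of idelalisib nor any solvent for the controls is given in the sources used here.

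GIMAPs are made chiefly in lymphocytes and sit on intracellular membranes or in the cytosol, where they bind GTP through a domain related to that of the septins. They are known for their part in the survival of T cells, and rodents that lack functional Gimap5 lose most of their peripheral T cells. Their transcripts are abundant in resting T cells. Different members have been placed on lysosomes, on mitochondria and in the autophagy pathway, so the family is not a set of interchangeable enzymes.

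The feature that all 8 genes share is the P-loop, the glycine-rich stretch that holds the phosphates of GTP. The P-loop occurs in many GTP- and ATP-binding proteins. Its codons are shown here because every member has them and because those of Gimap3 and Gimap5 were identical. They were found by translating the longest annotated coding sequence of each gene in GENCODE M21 and searching for glycine, any 4 residues, glycine, lysine, and serine or threonine. Each sequence is the coding strand from 5′ to 3′, and capitals mark the codons of the last 3 residues of the motif.
Gimap8, P-loop starting at residue 55: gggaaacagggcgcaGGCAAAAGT
Gimap8, P-loop starting at residue 291: gggaagcgtggtgttGGGAAAAGT
Gimap8, P-loop starting at residue 482: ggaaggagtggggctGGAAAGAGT
Gimap9: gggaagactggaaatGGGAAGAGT
Gimap4: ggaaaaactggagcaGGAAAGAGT
Gimap6: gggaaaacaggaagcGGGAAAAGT
Gimap7: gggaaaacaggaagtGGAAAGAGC
Gimap1: ggcaggactgggaccGGCAAGAGT
Gimap5: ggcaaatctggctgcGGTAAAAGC
Gimap3: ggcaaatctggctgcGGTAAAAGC
Gimap8, with 688 residues, carried 3 P-loops, and each of the other members carried 1 in a protein of 291 to 328 residues. Gimap3 and Gimap5 had the most similar coding sequences, with 88.9% identity over 899 aligned bases. Among the 21 pairs that leave out Gimap8 the next closest pair had 65.6%.

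Gimap3 and Gimap5 lie next to each other at one end of the cluster, and they moved in opposite directions. Reads from the stretches they have in common could be assigned to either gene or discarded. The longest such stretch in their coding sequences, which is shown because no short read within it can tell the genes apart, was 140 bases long.
Gimap3 and Gimap5, shared coding bases: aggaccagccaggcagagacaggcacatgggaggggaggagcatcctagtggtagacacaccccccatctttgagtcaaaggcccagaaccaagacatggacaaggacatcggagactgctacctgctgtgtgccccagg
Such stretches were a small part of either gene. Of all 50-base words in the transcripts of Gimap3, 190 of 2528 also occurred in Gimap5, which has 4195 words in all. None of the other 6 members shared a 50-base word with another member.

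The family was well covered. Together the 8 genes took 24326 to 34189 counts per library, out of total counts of 13372318 to 16770452 per library, and their mean control levels in CPM (counts scaled to a common library size) lay above those of 72.1% to 97.7% of the genes tested. On the second principal component of all genes (11.5% of the variance) idelalisib replicate 2 lay apart from replicates 1 and 3, and values that rest on it are given below. T cell genes were high in every library, with CD4 T cell markers summing to 2322 to 2495 CPM in the control cultures and 2142 to 2551 CPM with the drug. These sums hide differences in both directions. By the test given below 2 of the 7 markers were higher and 1 was lower, beside 44.6% called among all genes. Lck fell (log2 fold change -0.40, adjusted p = 0.00154, edgeR) and Cd3g rose (0.35, adjusted p = 0.0028, edgeR). With 1 library left out 1 to 3 were higher and 1 to 2 lower. In bulk RNA a smaller number of cells of one kind and less RNA per cell cannot be told apart.

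With idelalisib 3 members rose, 3 fell and 2 did not pass the test. Gimap3, Gimap8 and Gimap4 were higher and Gimap5, Gimap7 and Gimap6 were lower, by edgeR's quasi-likelihood test with Benjamini-Hochberg adjustment over all tested genes and a threshold of 0.05 (n = 3 per group). Across all genes tested, 44.6% were called by the same rule, 22.2% as higher and 22.4% as lower. The 6 of 8 called here is a higher share on very few genes, and no test of the family as a set was made. The 44.6% was taken over tested genes of every level, not over genes matched to the members in level. The sizes of the differences were ordinary: the median absolute log2 fold change of the 8 members was 0.33, against 0.36 for all genes tested and 0.62 for all genes called. With the signs kept, the members' median was -0.04 and that of all genes was 0.01. No member differed by as much as 1 on the log2 scale.

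**Figure D1:**
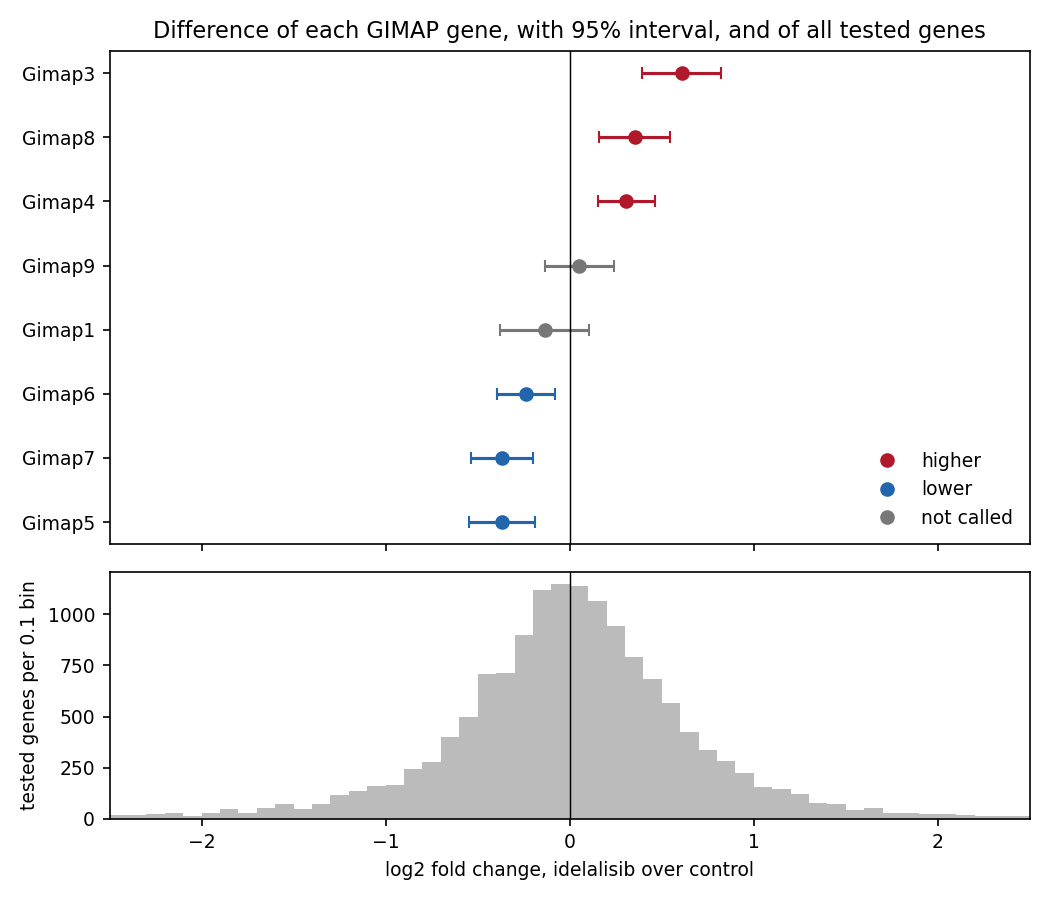
Upper panel, log2 fold change of each GIMAP gene (idelalisib over control, n = 3 per group) with its 95% interval, coloured by the call at an adjusted p under 0.05; lower panel, number of tested genes per bin of 0.1 on the same axis. Members run from -0.37 for Gimap5 and Gimap7 to 0.61 for Gimap3, well within the spread of all genes.

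Gimap3, which encodes a member found on mitochondria and the endoplasmic reticulum, had the largest difference of the family (ENSMUSG00000039264, mm10 chromosome 6, 48764464 to 48770851, minus strand). Its levels were 450.4, 479.5 and 436.6 CPM in control replicates 1 to 3 and 750.6, 576.4 and 755.9 CPM in idelalisib replicates 1 to 3. The groups did not overlap, and idelalisib replicate 2 was the lowest of its group. Gimap3 rose 1.52-fold, a log2 fold change of 0.61 ± 0.10 (SE; adjusted p = 0.000262, edgeR). Leaving out 1 library at a time gave log2 fold changes of 0.55 to 0.73, all of them called.

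Gimap5, which encodes the lysosomal member whose loss depletes T cells, fell by as much as Gimap7, the 2 largest falls of the family (ENSMUSG00000043505, chromosome 6, 48746197 to 48754210, plus strand). It was at 101.0, 96.2 and 109.8 CPM in the control cultures and 76.4, 79.7 and 81.9 CPM with the drug. All idelalisib libraries were below all control libraries. The level with idelalisib was 77.5% of control, a log2 fold change of -0.37 ± 0.08 (SE; adjusted p = 0.00271, edgeR). Per kilobase of gene length, Gimap3 was 7.18, 8.02 and 6.40 times as high as Gimap5 in control libraries and 15.8, 11.7 and 14.9 times as high in idelalisib libraries. This ratio, chosen after its values were seen, did not overlap between the groups. That follows from the rise of Gimap3 and the fall of Gimap5 given above and is not a further result.

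The other rising members were Gimap4 and Gimap8. Gimap4 encodes a cytosolic GTPase that has been linked to T cell death (ENSMUSG00000054435, chromosome 6, 48684549 to 48692060, plus strand). It was at 346.3, 353.6 and 341.1 CPM in the control cultures and 425.6, 434.6 and 428.8 CPM with the drug, the tightest groups of the family. Its coefficient of variation was 1.81% in control and 1.06% in idelalisib libraries, and its log2 fold change was 0.31 ± 0.07 (SE; adjusted p = 0.00322, edgeR). Gimap8 encodes the longest member, the one with 3 P-loops (ENSMUSG00000064262, chromosome 6, 48647234 to 48660875, plus strand). Its levels were 103.3, 123.9 and 114.6 CPM in the control cultures and 154.6, 148.7 and 133.1 CPM with the drug. The groups did not overlap, with the lowest idelalisib library 9.20 CPM above the highest control library. The log2 fold change was 0.35 ± 0.09 (SE; adjusted p = 0.00622, edgeR), and without control replicate 1 it was 0.28 and no longer passed (adjusted p = 0.0559).

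Beside Gimap5, the falling members were Gimap7 and Gimap6. Gimap7 encodes a GTPase whose activity depends on pairing between molecules (ENSMUSG00000043931, chromosome 6, 48718621 to 48724636, plus strand). It was at 158.9, 172.9 and 163.4 CPM in the control cultures and 131.9, 121.6 and 130.7 CPM with the drug. The groups were apart, and the log2 fold change was -0.37 ± 0.08 (SE; adjusted p = 0.00182, edgeR). Gimap6 encodes a member that binds the autophagy protein GABARAPL2 (ENSMUSG00000047867, chromosome 6, 48701582 to 48708225, minus strand). Its levels were 404.3, 411.2 and 419.9 CPM in the control cultures and 338.5, 360.5 and 347.6 CPM with the drug. The groups did not overlap, but at 84.7% of control this was the smallest of the called differences, with a log2 fold change of -0.24 ± 0.07 (SE; adjusted p = 0.0162, edgeR). The call of Gimap6 was the least stable of the 6. It was lost without any 1 of the 3 control libraries or without idelalisib replicate 1 (adjusted p = 0.0507, 0.0599, 0.0745 and 0.0730), and when libraries were scaled by their size alone (log2 fold change -0.084, adjusted p = 0.356).

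Gimap1 and Gimap9 did not pass the test. Gimap1 encodes a member that mature B and T cells need to survive (ENSMUSG00000090019, chromosome 6, 48739054 to 48743795, plus strand). It was at 90.8, 101.6 and 92.3 CPM in the control cultures and 85.1, 71.8 and 102.0 CPM with the drug. The idelalisib libraries straddled the control libraries, with replicate 2 lowest and replicate 3 highest of all 6. Its log2 fold change was -0.14 with a 95% interval of -0.38 to 0.10 (edgeR adjusted p = 0.345), and without idelalisib replicate 3 it was -0.26 and passed (adjusted p = 0.0347). Gimap9 (ENSMUSG00000051124, chromosome 6, 48676129 to 48679114, plus strand) was at 57.9, 53.9 and 61.2 CPM in the control cultures and 56.5, 60.8 and 62.1 CPM with the drug. These ranges overlapped, and the log2 fold change of 0.05 had a 95% interval of -0.14 to 0.24 (edgeR adjusted p = 0.657). The interval of Gimap1 leaves room for falls as large as those called in other members. That of Gimap9 reaches only the size of the smallest called difference, that of Gimap6, and in the other direction.

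**Figure D2:**
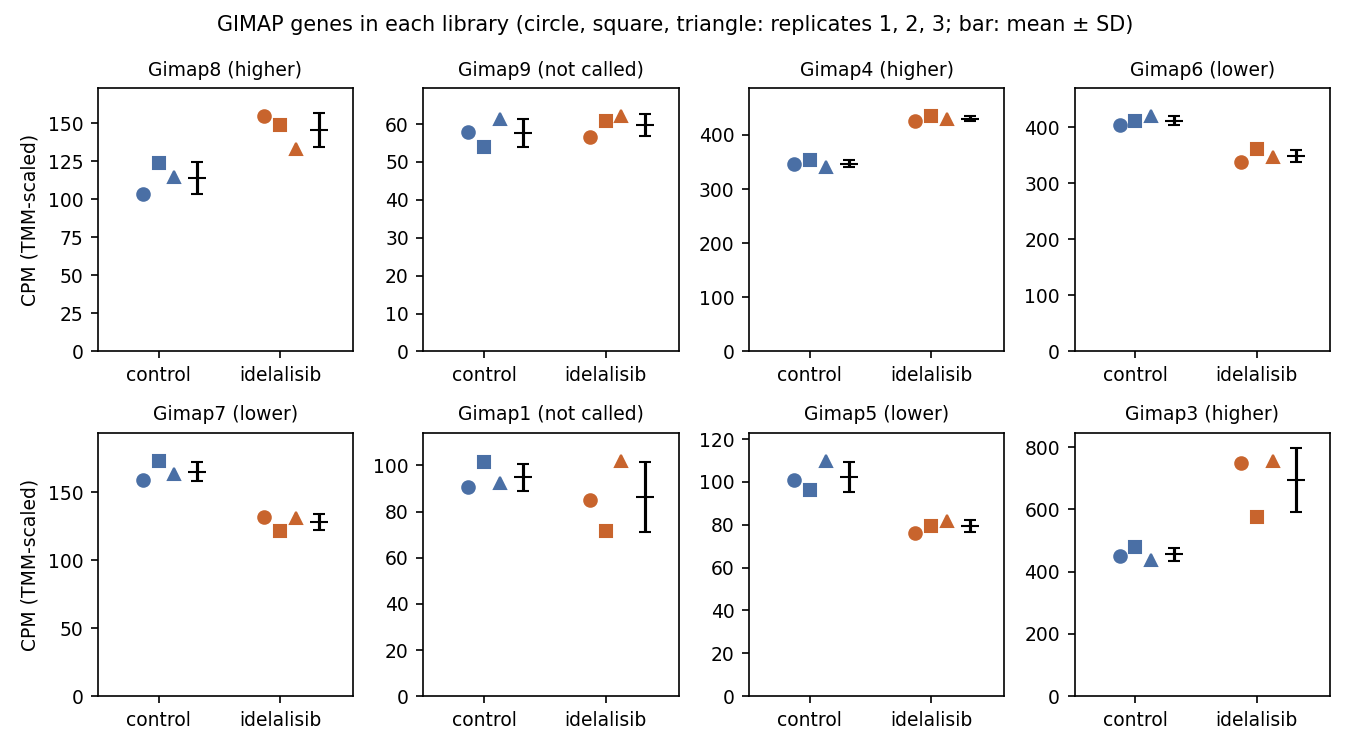
CPM of each GIMAP gene in the 3 control and 3 idelalisib libraries (circle, square and triangle for replicates 1, 2 and 3), with the group mean ± SD beside the points and each axis starting at 0. The groups are apart in 6 of the 8 genes and overlap in Gimap1 and Gimap9.

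Non-overlapping groups, seen in 6 of 8 members, occurred in 54.6% of all genes tested. Scaling mattered to the small differences. With library size alone the median over all genes moved by 0.15 on the log2 scale, and each member moved up by about as much, from 0.15 to 0.16. Under that scaling 3 members were still higher and 2, Gimap5 and Gimap7, still lower, both at -0.21 (edgeR adjusted p = 0.0459 and 0.0372). The sign of the uncalled Gimap1 turned to 0.02.

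**Figure D3:**
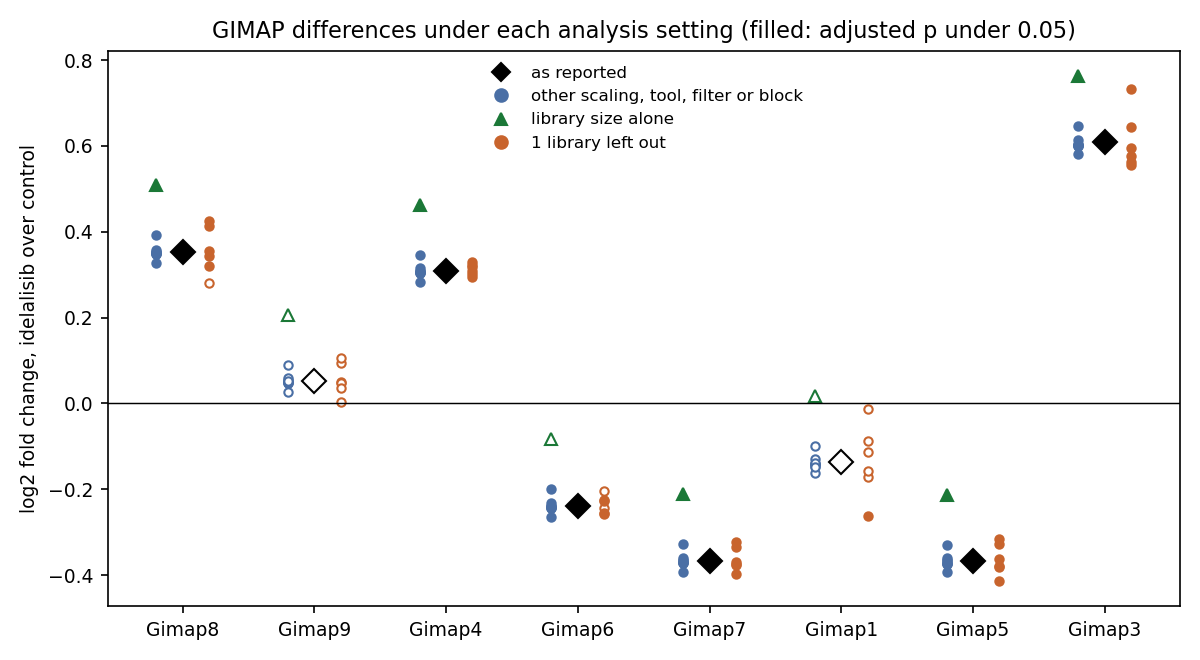
Log2 fold change of each GIMAP gene, in the order of the genes along the chromosome, as reported (diamonds), under other scalings, tools, filters or a replicate block (blue), scaled by library size alone (green triangles) and with 1 library left out (orange); filled symbols passed at an adjusted p under 0.05. The 6 called members kept their sign in every setting, while Gimap6 has open symbols in 5 of 15 alternatives.

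Most of the family's transcripts came from a few members, and the make-up shifted. Levels of different genes are compared here in CPM per kilobase of the gene length given in the deposited table. In control libraries Gimap4 was highest at 188.9 ± 3.41 CPM per kilobase (SD, n = 3), followed by Gimap3 at 176.8 ± 8.49, Gimap6 at 117.8 ± 2.24 and Gimap7 at 71.0 ± 3.09. Gimap9 at 35.1 ± 2.22, Gimap1 at 30.9 ± 1.91, Gimap8 at 30.8 ± 2.79 and Gimap5 at 24.7 ± 1.66 CPM per kilobase were lower. Neighbours in this order overlapped in range for Gimap4 and Gimap3, for Gimap9 and Gimap1, and for Gimap1 and Gimap8, while the other steps were clear of overlap. With idelalisib the order was Gimap3 at 269.4 ± 39.6, Gimap4 at 233.9 ± 2.47, Gimap6 at 99.8 ± 3.17, Gimap7 at 55.1 ± 2.42, Gimap8 at 39.3 ± 2.99, Gimap9 at 36.4 ± 1.78, Gimap1 at 28.1 ± 4.92 and Gimap5 at 19.1 ± 0.669 CPM per kilobase. Gimap3 and Gimap4 still overlapped, as did Gimap8 and Gimap9. Gimap3 therefore passed from the second to the first place by mean, within overlapping ranges, and Gimap5 stayed last.

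Summed over the 8 genes, the family stood at 1713, 1793 and 1739 CPM in the control cultures and 2019, 1854 and 2042 CPM with the drug. Every idelalisib sum was above every control sum, by least in idelalisib replicate 2. Without Gimap3 the sums were 1262, 1313 and 1302 CPM in the control cultures and 1269, 1278 and 1286 CPM with the drug, and the groups overlapped. This held with TMM scaling. As a share of all counts, which is scaled by library size alone and was added after the data were seen, the other 7 took 0.120% to 0.124% in control and 0.134% to 0.135% in idelalisib libraries, without overlap. The share of Gimap3 in the summed CPM per kilobase went from 26.1 ± 0.796% to 34.4 ± 3.43% (SD, n = 3), and that of Gimap6 from 17.4 ± 0.476% to 12.8 ± 1.05%. Gimap7 went from 10.5 ± 0.223% to 7.05 ± 0.0912% and Gimap5 from 3.65 ± 0.301% to 2.45 ± 0.154%. Gimap4 took 27.7% to 28.4% in control and 28.9% to 32.2% in idelalisib libraries, and the mean share of Gimap1 went from 4.57 ± 0.177% to 3.58 ± 0.472%. These 6 shares did not overlap between groups, while those of Gimap8 and Gimap9 did. A share also moves when another member's level does.

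**Figure D4:**
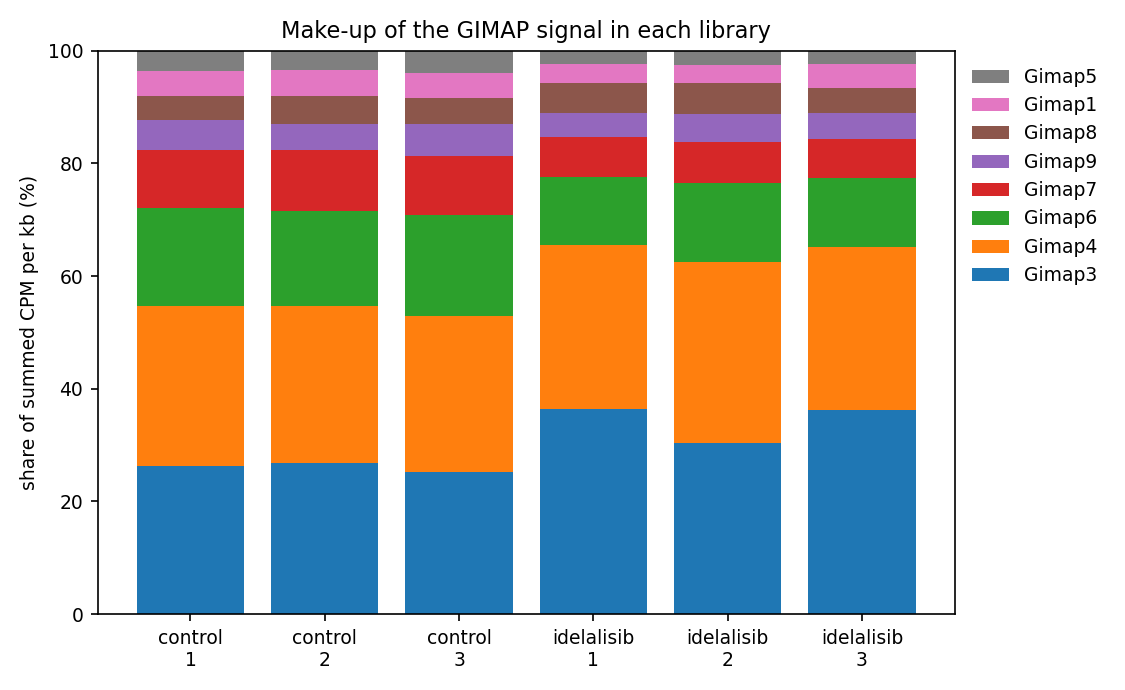
Share of each GIMAP gene in the family's summed CPM per kilobase, 1 stacked bar per library (percent, from 0 to 100). Gimap3, the lowest block, takes 25.3% to 26.8% in control and 30.4% to 36.5% in idelalisib libraries, and the blocks of Gimap6 and Gimap7 are thinner with idelalisib.

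The direction of change followed the order of the genes in part. The cluster spans 123.6 kb, from 48647234 to 48770851 on mm10 chromosome 6, and its members run Gimap8, Gimap9, Gimap4, Gimap6, Gimap7, Gimap1, Gimap5, Gimap3. The 3 falling genes lie in the stretch from Gimap6 to Gimap5, which also holds the uncalled Gimap1. The rising genes lie on either side of that stretch, with the uncalled Gimap9 between Gimap8 and Gimap4. Strand did not separate the directions, since the minus strand held the rising Gimap3 and the falling Gimap6. With 8 genes this arrangement, noticed after the values were seen, is a description.

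Of 4 tested non-member genes inside the cluster, 2 rose and 2 did not pass. The lincRNAs Gm44226 and 4833403J16Rik had log2 fold changes of 0.19 and 0.54 (adjusted p = 0.617 and 0.145, edgeR), and both are named for their place. Gimap1os, a transcript on the strand opposite to Gimap1 (48738346 to 48741444, minus strand), had 133, 128 and 116 counts in the control cultures and 273, 226 and 250 with the drug. Every idelalisib library was well above the control libraries. Its log2 fold change was 0.96 ± 0.14 (SE; adjusted p = 9.00e-05, edgeR). Gm28053 is annotated as a protein-coding gene whose transcripts run across Gimap7, Gimap1 and Gimap5 (48718607 to 48752644, plus strand). It had 59, 48 and 48 counts in the control cultures and 93, 78 and 100 with the drug, a log2 fold change of 0.77 ± 0.20 (SE; adjusted p = 0.00573, edgeR). Both thus rose while Gimap7 and Gimap5 fell.

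These overlaps bear on how the members were counted. In the GENCODE M21 annotation 36.0% of the exonic bases of Gimap1 also belong to another gene, 1107 bases of them to Gimap1os, against 3.48% for Gimap7, 3.69% for Gimap5 and 0 for the other 5 members. The sources used here do not give whether reads were assigned by strand or what became of reads that touch overlapping genes, so the level of Gimap1 and its difference are uncertain. The same holds for the rises of Gm28053 and Gimap1os, which share 43.7% and 35.7% of their exonic bases with other genes. Per kilobase of exon not shared with another gene, a length chosen after the data were seen, Gimap1 stood at 48.3 CPM in control and 43.9 CPM with idelalisib, above Gimap9 at 35.1 and 36.4 CPM. The other members kept their order on that length.

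**Figure D5:**
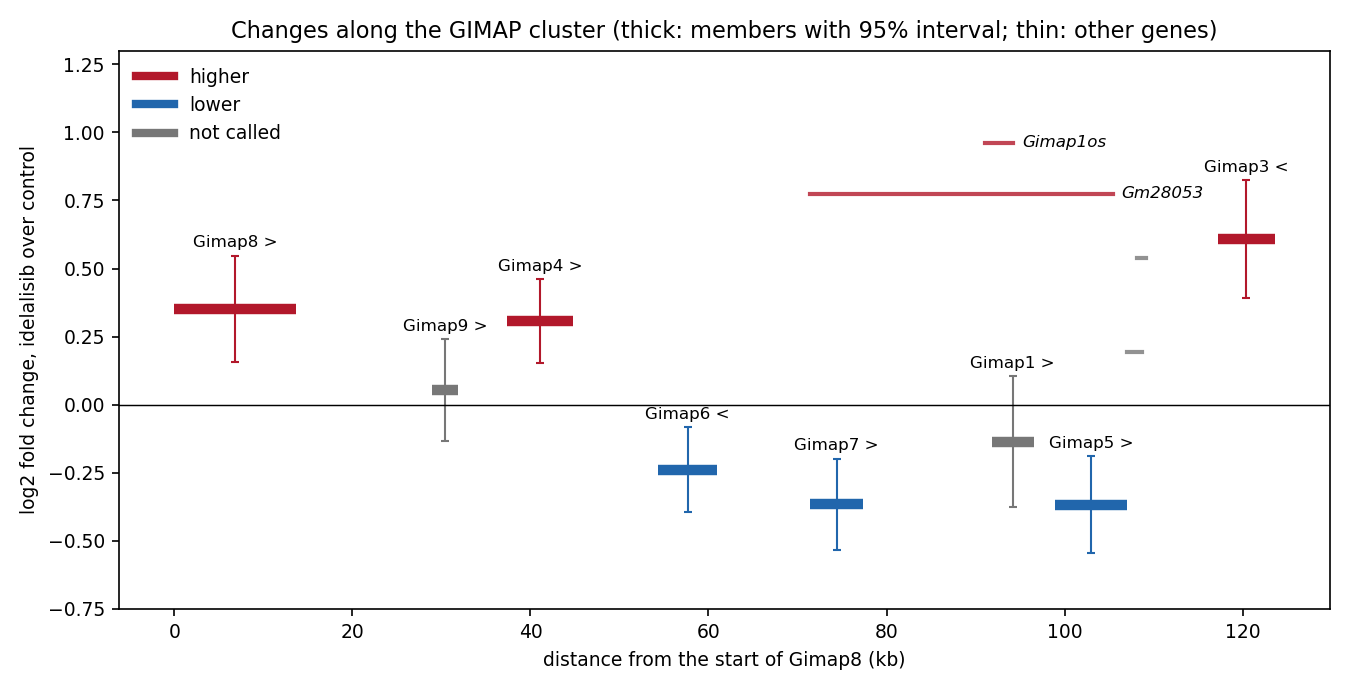
Log2 fold change (idelalisib over control) of genes along the cluster, plotted against distance from the start of Gimap8 in kb; thick bars span each GIMAP gene with its 95% interval, thin bars span other tested genes, and arrowheads after the names give the strand. The middle genes Gimap6, Gimap7 and Gimap5 lie below 0, the outer genes Gimap8, Gimap4 and Gimap3 lie above it, and Gimap1os and Gm28053 lie higher still. The uncalled members are Gimap1 in the middle stretch and Gimap9 between Gimap8 and Gimap4.

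Genes around the cluster were mostly not called. Of 51 non-member genes inside it or within 500 kb of either end, 23 were tested; 6 were higher and 2 were lower, with a median log2 fold change of 0.21. The 44.6% of all genes called is the level to set beside these 8 of 23. On the side of Gimap8, 2 of 11 tested genes were higher and none was lower, and beyond Gimap3 2 of 8 were higher and 2 lower. The differences of largest size were in Gm43980 at -2.10, in Tmem176a, which encodes a membrane protein, at 1.39, and in Tra2a, which encodes a splicing factor, at -1.26. Gm43980 lies within the span of Tra2a on the other strand, 484 kb beyond Gimap3. Tmem176a rested on few reads, with 0.672 ± 0.237 CPM in the control cultures and 1.76 ± 0.214 CPM with the drug.

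Promoter sequence is given for Gimap3 and Gimap5, the most similar pair in coding sequence, which moved in opposite directions. RefSeq lists 9 promoters for the 8 members in the GRCm38.p6 build, and the 250 bases before each start were searched on both strands for GTAAACA (FOXO), TGTGGT (RUNX), the core of the interferon-stimulated response element and CCGGAAGT (ETS). Capitals mark a match.
Gimap3, chr6:48770852-48771101, minus strand: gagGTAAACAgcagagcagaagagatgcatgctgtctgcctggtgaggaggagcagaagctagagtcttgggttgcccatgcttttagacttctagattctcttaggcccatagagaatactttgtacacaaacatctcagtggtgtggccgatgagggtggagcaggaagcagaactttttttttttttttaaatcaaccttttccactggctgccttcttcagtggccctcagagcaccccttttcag
Gimap5, chr6:48745947-48746196, plus strand: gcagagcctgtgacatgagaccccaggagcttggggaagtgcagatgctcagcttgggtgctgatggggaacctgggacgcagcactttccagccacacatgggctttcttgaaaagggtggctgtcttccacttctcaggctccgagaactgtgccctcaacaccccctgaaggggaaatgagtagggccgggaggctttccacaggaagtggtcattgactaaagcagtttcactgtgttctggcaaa
The FOXO letters occurred in 1 member, Gimap3, starting 247 bases before its start, and in 3.17% of 32851 promoters overall. The RUNX letters occurred in Gimap1, Gimap4 and Gimap7, members with different outcomes, and in 14.1% of all promoters. No member held the other 2 motifs in this window, which 2.98% and 2.88% of all promoters held. A match of letters is not a binding site.

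Genes tied to GIMAP function were split as well. ATG8 proteins are the small ubiquitin-like proteins of autophagosome membranes, among them the partner of GIMAP6, and of their 5 genes 1 was higher and 2 were lower, beside 44.6% called among all genes (median log2 fold change -0.05). Of the lower pair, Gabarap (log2 fold change -0.29, adjusted p = 0.0308, edgeR), named after its values were seen, lost its call in 5 of the 6 fits without 1 library, all but that without idelalisib replicate 3, and under upper-quartile and library-size scaling. Gabarapl2, which encodes that partner, was at 28.0, 30.2 and 33.6 CPM in the control cultures and 34.6, 37.0 and 41.9 CPM with the drug. Its groups were apart by a narrow margin, and the log2 fold change of 0.31 ± 0.11 (SE; adjusted p = 0.0329, edgeR) did not pass when control replicate 1, control replicate 2 or idelalisib replicate 3 was left out (adjusted p up to 0.161). Its relative Gabarapl1 fell from 76.1 ± 2.20 to 48.2 ± 4.70 CPM (SD, n = 3), which is on the log2 scale -0.66 ± 0.09 (SE; adjusted p = 6.73e-05, edgeR).

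The BCL2 family, which controls death through the mitochondrial pathway and to which some GIMAPs have been reported to bind, held 3 higher and 2 lower of 15 tested genes (18 listed), beside 44.6% called among all genes. The 3 higher genes were Bik, Bak1 and Bcl2a1b, and all 3 lost their calls without control replicate 3. Without control replicate 1 or idelalisib replicate 3, 1 was left, and scaling by library size alone gave 8 higher genes. Its median log2 fold change was 0.04. The largest differences were in the death-promoting genes Bik at 1.00 and Bbc3 at -0.63. Bik rested on 1.18 ± 0.572 CPM in the control cultures and 2.38 ± 0.488 CPM with the drug. It passed narrowly (edgeR, adjusted p = 0.0388), and not by DESeq2 or when replicate 1 or 3 of either group was left out (adjusted p up to 0.145). Bbc3 fell from 40.9 ± 1.95 to 26.5 ± 5.27 CPM (edgeR adjusted p = 0.00135).

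Septins, the filament-forming GTPases nearest to GIMAPs in fold, held 4 higher and 3 lower of 10 tested genes of 13 listed, beside 44.6% called among all genes and with a median log2 fold change of -0.05. The higher septins numbered 2 when control replicate 2 or 3 or idelalisib replicate 1 or 3 was left out, Sept3 and Sept9 being those that lost their calls. Sept10 was highest at 1.67, from 1.57 ± 0.213 to 5.01 ± 0.334 CPM, and Sept2 lowest at -1.47, from 20.4 ± 0.339 to 7.38 ± 1.74 CPM. Both differences were larger than that of any GIMAP gene.

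T cell quiescence and homing genes were listed because GIMAPs are most abundant in resting T cells, and 4 of the 18 were higher and 6 lower, beside 44.6% called among all genes and with a median log2 fold change of -0.06. With libraries scaled by size alone 3 were lower. Klf2, a transcription factor that keeps T cells quiescent and recirculating, was at 4.19, 2.84 and 3.57 CPM in the control cultures and 15.3, 11.8 and 19.9 CPM with the drug, a log2 fold change of 2.15 ± 0.22 (SE; adjusted p = 4.01e-06, edgeR). Its groups did not overlap, and the log2 fold change was larger than that of Gimap3. Among the lower genes, named after their values were seen, Btg1, an antiproliferative gene, fell from 694.2 ± 48.9 to 389.1 ± 26.8 CPM, and Il7r, which encodes the interleukin-7 receptor, from 255.7 ± 7.76 to 165.8 ± 24.5 CPM (SD, n = 3). Their log2 fold changes were -0.84 and -0.62.

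Markers of other cells that express GIMAP genes were low but not constant. Of 6 tested B cell markers (7 listed) 4 were higher and none was lower, beside 22.2% higher among all genes, and the 7 summed to 20.5 to 21.4 CPM in the control cultures and 24.5 to 29.1 CPM with the drug. Most of that was Ebf1, at 15.4 and 14.7 CPM and not called. Without it, a sum chosen after the data were seen, the range was 5.09 to 6.13 CPM in the control cultures and 10.8 to 12.5 CPM with the drug. Bank1 and Cd79b had log2 fold changes of 1.46 and 1.42 at levels of 0.749 and 0.689 CPM in control. Cd79a lost its call in 3 of the 6 fits without 1 library, those without control replicate 1, control replicate 3 or idelalisib replicate 3. Natural killer cell markers summed to 4.44 to 6.34 CPM in the control cultures and 8.69 to 12.7 CPM with the drug. Of 2 tested genes 1 was higher, Eomes, a transcription factor that activated T cells can also express. The rise of the sum was in Eomes, which went from 2.88 ± 0.316 to 9.30 ± 1.88 CPM (SD, n = 3). Klre1, the other tested gene, was at 2.32 ± 0.647 and 1.94 ± 0.598 CPM and not called. Klrb1c, which did not pass the filter, was at 0.178 and 0.0435 CPM. Ncr1 was at 0 counts in every library, which allows up to 3 counts in a library. CD8 T cell markers summed to 4.43 to 7.86 CPM and 7.24 to 9.50 CPM, and 1 of the 2, Cd8a, was called higher. The groups overlapped for Cd8a, and the call (adjusted p = 0.0360, edgeR) was lost without replicate 1 or 3 of either group, with adjusted p up to 0.189. Myeloid markers, none of which passed the filter, summed to 0.751 to 0.793 CPM and 1.19 to 2.12 CPM. Endothelial markers summed to 36.4 to 38.2 CPM and 33.4 to 37.8 CPM, nearly all of it Pecam1, which T cells also express. Cdh5 and Emcn were at 0 counts in every library. Of 2 tested endothelial markers 1 was higher, Kdr, which rose from 0.201 ± 0.174 to 3.24 ± 1.20 CPM. Its log2 fold change was 3.96 (adjusted p = 3.48e-05, edgeR), and it kept its call without each library in turn. Kdr had only 1, 6 and 2 counts in the control cultures. The part of such cells in the GIMAP differences was not tested.

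Across the 6 libraries, the genes whose log2 CPM followed the log2 of the summed GIMAP CPM most closely were Gpr137, Il21r, Arhgap4, Tnfaip8l1 and Ifnl3, with Pearson's r of 0.999, 0.997, 0.996, 0.994 and 0.993 among 11381 protein-coding genes averaging at least 1 CPM. These libraries form 2 groups, and all 5 genes repeated the pattern of high idelalisib replicates 1 and 3 and a lower idelalisib replicate 2. That is the pattern of the sum itself, so choosing genes by r fixed it in advance. Gimap3 taken by itself had that pattern too, at 750.6, 576.4 and 755.9 CPM. Without it the summed CPM overlapped between the groups with TMM scaling, but the other members' share of all counts did not. The likeness is to the sum. How closely these genes followed single members or the sum without Gimap3 was not tested. Ifnl3 rested on few reads, with 0.509 ± 0.131 CPM in the control cultures and 1.80 ± 0.764 CPM with the drug (SD, n = 3). In all, 271 genes, 2.38% of those compared, had an r above 0.95. Il21r, which encodes the receptor for interleukin-21, was at 322.8, 335.8 and 328.3 CPM in the control cultures and 388.3, 350.3 and 396.8 CPM with the drug.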

How the data were processed

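Gene counts from 6 poly(A) RNA-seq libraries, 3 per group, were analysed. The authors deposited raw read counts per gene, with gene length and position as other values of the table; the tools named in the submitters' processing notes are fastp, HISAT2 (2.0.5) and featureCounts (1.5.0-p3), and the build is mm10. The sources used here do not give strand or overlap settings. Groups and replicate numbers came from sample titles and columns from library names. Symbols of septin genes that the table holds as dates were restored from gene identifiers. Of the table's identifiers 99.8% occur in GENCODE M21, and 98.3% of those have identical coordinates.

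Genes were filtered with filterByExpr (minimum count 10, minimum total 15), normalised by TMM and fitted in edgeR 4.0.16, R 4.3.3 (robust quasi-likelihood F test, group alone, Benjamini-Hochberg adjustment over 14530 genes, called at 0.05). Each SE is the absolute log2 fold change over the square root of F. CPM use TMM-scaled library sizes. The procedure was tested on simulated data in which a small part of the genes changed, in random directions. Far more genes were called in the real data, so that test does not cover the choice of scaling. Total counts were 13372318 to 16770452, so 1 CPM is about 13.4 to 16.8 reads before scaling. No library was a duplicate of another, since the chi-square statistic of counts per degree of freedom within groups was 4.63 to 18.2.

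The members and lists were chosen with earlier results of these data known. Named genes are all members, the 2 called genes of largest change averaging at least 1 CPM in each list (not all printed for marker lists, and 1 gene of another list is not reported here), the 3 called flanking genes of largest change, genes overlapping a member and the 5 genes most correlated with the summed family. Alternatives were RLE, upper-quartile and library-size scaling, DESeq2 1.42.0, limma-voom (limma 3.58.1), other count filters, protein-coding genes alone, stricter thresholds, a replicate block and leaving out each library.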

Additional observations from a re-analysis of the deposited data

How the results depend on the processing

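Over 15 alternatives each, Gimap3, Gimap4, Gimap5 and Gimap7 were called in the same direction in all, Gimap8 in 14 and Gimap6 in 10, and Gimap9 in none. Gimap6 was at -0.084 scaled by library size alone, and -0.26 to -0.20 with 1 library left out. Gimap8 ranged from 0.28 to 0.42 and Gimap1 from -0.26 to -0.012 with 1 library left out, which called 2 to 3 members higher and 2 to 4 lower. Asking for a log2 fold change of at least 1 left 0 members higher and 0 lower, and 838 and 866 of all genes. Of the flanking genes it left 3 higher and 2 lower. Among the lists, tried under the same alternatives after the data were seen, library size alone gave 2 higher and 1 lower ATG8 gene, 8 higher BCL2 genes and 3 lower quiescence and homing genes, and upper-quartile factors gave 1 lower ATG8 gene. With 1 library left out the higher and lower genes numbered 0 to 1 and 1 to 2 (ATG8), 0 to 4 and 2 to 3 (BCL2), 2 to 4 and 2 to 4 (septins), and 3 to 4 and 5 to 7 (quiescence and homing). At an adjusted p under 0.01, 2138 genes were higher. Flanking genes called lower numbered 2 to 4 with 1 library left out. The 4 came without idelalisib replicate 2, when 3599 of all genes were higher and 3581 lower, against 3223 and 3256 with all libraries. Each other fit without 1 library called fewer genes in both directions than the fit with all libraries. Fits without a library have fewer samples, and the cause of these shifts was not tested. With libraries scaled by size only, 4832 genes were higher and 2219 lower, so 68.5% of called genes were higher, against 49.7% with TMM.

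With replicate number as a block, 3 members were higher and 3 lower, and of all genes 2910 were higher and 3051 lower. Among named genes Bik, Cd8a, Il21r and Sept9 lost their calls with it. The numbers were not taken as pairs: same-numbered libraries' deviations from group means correlated at 0.0974, -0.146 and -0.145, and not every library correlated best with its own number. With 3 libraries per group, a member that missed the threshold is not shown to be unchanged, as the intervals of Gimap1 and Gimap9 show.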
